A study of Mus musculus with 3 samples.

Results

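Intergenic noncoding RNA intervals are stretches of the genome between protein-coding genes from which long RNAs without a known protein product are made. The mouse expression array used here carries probes to such intervals, and each of these probes is named in the files by a chromosome, a start, an end and a letter, F or R, taken here as the forward or reverse strand. All 4449 non-control probes with a name of this form were taken as members, which is 7.86% of the 56605 non-control probes. They cover 3229 distinct intervals on 20 chromosomes of mouse build mm9. Long intergenic RNAs are made by the same polymerase as messenger RNAs and many are capped and spliced. As a class they are known to be less abundant than messenger RNAs and to be active in fewer cell types. Xist, which coats the inactive X chromosome, and Neat1, the scaffold of nuclear paraspeckles, are well-known examples of long noncoding RNAs.

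The cells were Hepa1c1c7, a mouse hepatoma line, and the study asked which genes respond when Mst1r, a receptor tyrosine kinase, or Slpi, a secreted protease inhibitor, is overexpressed. Cells were transfected with an empty vector, pCMV6-Kan/Neo, or with a vector carrying the open reading frame of mouse Mst1r or of mouse Slpi. Each culture received 2 μg of vector with the reagent HilyMax and was kept for 24 h, and 100 ng of RNA was labelled with Cy3. With 1 array in each of the 3 groups, differences have no replicate check and are given without a test.

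The transfected genes did not stand out on their own arrays. The single Mst1r probe had processed signals of 4.15 on the array labelled empty vector, 4.08 on the array labelled Mst1r vector and 3.70 on the array labelled Slpi vector, and none of these passed the flag for signal well above background. The brighter Slpi probe had 6459, 3843 and 6680 and the dimmer 1 had 106, 91.7 and 85.8, in the same order of arrays. Whether these probes lie within the cloned reading frames is not given in the sources used here, so the arrays are called by their labels throughout. The study also measured Mst1r in transfected cells by real-time PCR, which is not analysed here. Of the hepatoma markers, Afp had 19822, 16911 and 18850 and Alb had 5083, 6449 and 4966, whereas Apob, Apoh and Hnf4a passed that flag on no array. Among the markers of other cells, the fibroblast gene Dcn had 41199, 27530 and 40480 and Col1a1 had 6508, 6677 and 5718, while Ptprc, Kdr, Cdh5, Epcam and Lrat passed it on none. Over the whole lists, 4, 6 and 6 of 10 hepatocyte markers passed it on these arrays, 2 of 5 leukocyte, 1 of 3 endothelial and 2 of 3 cholangiocyte markers on each, and 3, 2 and 3 of 4 stellate cell markers.

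The rows of spots on the array were divided into 3 equal blocks, of which the first is called the upper part and the other two the lower part. Of the members, 1443 lie in the upper part, 3001 in the lower part and 5 have spots in both. The parts differed in quality. Of the negative control spots, which have no target, 12, 9 and 11 of 102 were well above background in the upper part on the arrays labelled empty, Mst1r and Slpi vector, against 1, 1 and 2 of 206 in the lower part. Results are therefore given for the lower part, with the upper part kept separate. Of the members, 4444 were printed on 1 spot and 5 on 10 spots.

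The intervals were 62 to 538251 bases long with a median of 7207 bases, and 1740 of them (53.9%) overlapped another interval on the array. A single probe represented 2261 intervals, 782 had 2 probes and 186 had 3 or more, up to 8. There were 2227 F and 2222 R probes, and 832 intervals had probes of both letters. Chromosome 1 held most members (343) and chromosome 19 fewest (95). Members of 1 interval or of overlapping intervals share their source and are not independent.

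About 1 member in 3 gave signal well above background. In the lower part this was 34.9% (1048 of 3001, exact 95% interval 33.2 to 36.7) on the array labelled empty vector, 33.3% (999, 31.6 to 35.0) on that labelled Mst1r vector and 35.0% (1051, 33.3 to 36.8) on that labelled Slpi vector. The intervals of the 3 arrays overlap. They cover counting error only. RefSeq mRNA probes were well above background in 59.7%, 58.7% and 59.7% of 19582 cases, and probes to RefSeq noncoding RNAs in 28.7%, 27.4% and 27.7% of 1645 cases. The interval probes thus lay between these classes, nearer to the noncoding RNAs, and their exact intervals did not overlap those of either class on any array. Probes to RefSeq predicted mRNAs were closer to the members, with 37.4%, 35.9% and 37.4% of 807 cases. Their exact intervals overlapped those of the members on every array. These exact intervals treat probes as independent, which members of 1 or of overlapping intervals are not, so they may be too narrow. All 3 arrays read the same probes.

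Most detected members were detected on every array. In the lower part, 948 members were well above background on all 3 arrays, 79 on 2, 96 on 1 and 1878 on none. Of the 1123 detected on at least 1 array, 8.55% were detected on 1 array only, against 3.35% of the mRNA probes. In the upper part the same share was 30.05% (244 of 812 members), against 14.7% of the mRNA probes. Counted by interval, 998 of 2432 intervals with a probe in the lower part (41.0%, exact interval 39.1 to 43.0) had a probe well above background on at least 1 array, and 850 (35.0%) on all 3.

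Detected members were also dimmer than detected mRNA probes. Levels are given as log2 of the processed signal minus the 75th percentile of the array, which corresponded to signals of 268, 229 and 254 on the arrays labelled empty, Mst1r and Slpi vector. Among probes well above background in the lower part, the median level of the members was -1.50, -1.24 and -1.53 on these arrays. That of the mRNA probes was 1.08, 1.07 and 1.07. The members' median signal was 95, 97.0 and 88.1, and that of the mRNA probes 568, 482 and 534. Over all members, detected or not, 313, 325 and 316 exceeded the 75th percentile, which is 10.4%, 10.8% and 10.5%, against 37.2% to 37.5% of the mRNA probes. The upper quartiles of the detected members, at 0.51, 0.88 and 0.58, fell below the medians of the mRNA probes on all 3 arrays. The probes to RefSeq noncoding RNAs had medians of -1.23, -0.96 and -1.10, close to the members. Signal also depends on the sequence of a probe, so these distributions compare classes and not transcripts.

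A small number of members were among the bright probes of the array. A processed signal over 1000 was reached by 147, 149 and 149 of the 3001 members, which is 4.90%, 4.97% and 4.97%, against 21.1% to 23.3% of the mRNA probes. The brightest member was A_30_P01026458 at chr11:22681800-22707775, letter R, with signals of 88663, 76764 and 85388 on the arrays labelled empty, Mst1r and Slpi vector. Its scaled log2 difference was 0.02 ± 0.08 for the Mst1r label and 0.02 ± 0.08 for the Slpi label, both against the empty vector. Next came A_30_P01022075 at chr17:17481706-17482457, letter R, with 72516, 62228 and 73507, and A_30_P01030669 at chr7:108209996-108216032, letter R, with 56793, 45601 and 58365. The ± values are technical standard deviations between spots, described under the differences below.

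Of the 10 brightest members, 3 were probes of a single interval, chr6:116123643-116124550, letter F. Their signals on the array labelled empty vector were 55759, 55717 and 44178, and on the array labelled Mst1r vector 42284, 41608 and 33179. Of these probes, 2 are among the 5 members printed on 10 spots. The other members on 10 spots were at chr17:39983902-39985688 (F), chr2:167085700-167117795 (R) and chr17:48068261-48087905 (F), and all 5 were bright, with signals from 23101 to 55759 on the 3 arrays. The interval at chr17:39983902-39985688 may overlap a ribosomal RNA sequence, and this was not determined, since no annotation of build mm9 was used here. None of the 10 brightest members differed 2-fold between any pair of arrays. Their scaled log2 difference from the empty vector ran from -0.19 to 0.32 for the Mst1r label and from -0.04 to 0.34 for the Slpi label.

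As classes, F and R probes were detected at similar shares. On the array labelled empty vector, 34.9% of 1503 F probes and 35.0% of 1498 R probes in the lower part were well above background, and on the other arrays the values were 33.1% and 33.4% (Mst1r label) and 34.5% and 35.5% (Slpi label). Within an interval, the letters were compared. Of the 396 intervals with probes of both letters in these rows, 138 were detected on neither, 84 with F only, 88 with R only and 86 with both. So 172 of the 258 detected intervals, or 66.7% (exact interval 60.6 to 72.4), were detected with 1 letter only. With the weaker flag of the files, significantly above background, the share was 42.3% (exact interval 37.1 to 47.6), so that such intervals were then a minority. For the intervals with exactly 1 probe of each letter the share was 68.3% (151 of 221). F was detected in 42.9% and R in 43.9% of the 396 intervals. At such shares, letters detected independently of each other would also leave most detected intervals with 1 letter only. A preference for 1 strand was not tested.

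A second comparison used all pairs of probes to the same interval. Among pairs of the same letter, both probes were detected in 43 of the 101 pairs with any detection, or 42.6%. Among pairs of opposite letters this was 95 of 295, or 32.2%. Thus in most such pairs, of the same letter too, a single probe of the pair was detected.

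Detection rose with the length of the interval. In the lower part, 28.0% (exact interval 24.6 to 31.7) of the probes to intervals of up to 1 kb were well above background on at least 1 array, 33.6% of those to intervals of 1 to 5 kb, 39.7% for 5 to 20 kb, 40.9% for 20 to 50 kb and 45.8% (40.5 to 51.2) above 50 kb. The intervals of the shortest and the longest class do not overlap, while those of every pair of neighbouring classes do. In the upper part the shares in the same order of length were 45.5%, 58.5%, 61.4%, 54.5% and 61.3%, lowest again for the shortest intervals but without a steady rise.

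By chromosome, the share well above background in the lower part was highest on chromosome 17 on all 3 arrays, at 47.0% (78 of 166, exact interval 39.2 to 54.9), 44.6% and 48.8% for the empty, Mst1r and Slpi labels. Chromosome 11 was next with 46.2%, 44.5% and 46.2% of 119 probes. The lowest shares were on chromosome 3, with 21.9% (33 of 151, 15.5 to 29.3), 24.5% and 25.8%, and on chromosome 13, with 25.3% (19.2 to 32.1), 23.1% and 25.8% of 186 probes. The X chromosome had 26.98%, 28.6% and 28.6% of 126 probes. On the array labelled empty vector the exact intervals of chromosomes 17 and 11 lie above those of chromosomes 3, 13 and X. This did not hold for X on the other arrays. On that labelled Mst1r vector the interval of X (20.9 to 37.3) overlapped those of chromosomes 17 (36.9 to 52.5) and 11 (35.4 to 53.9). On that labelled Slpi vector it overlapped that of chromosome 11 (37.0 to 55.6). These are the extremes of 20 chromosomes, named after their values were seen. The 5 probes on 10 spots are not in these counts.

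For the differences between arrays, the 75th percentile was subtracted from log2 signals and a probe was counted as higher or lower when the arrays differed at least 2-fold and the brighter of them had a processed signal over 50. The error given with a log2 difference is a technical standard deviation for 1 spot against 1 spot, from probes printed on many spots at a similar signal in the same part of the array. It does not hold the variation between cultures.

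With the Mst1r label against the empty vector, 27 of the 3001 members in the lower part were higher, or 0.900%, while the background over all 37512 non-control probes in these rows was 0.664%. Lower were 4 members, or 0.133%, with a background of 0.155%. Of the 27 higher members, 24 were well above background on both arrays, with folds from 2.01 to 13.5 and a median of 2.83. They lay on 14 chromosomes, 12 with the letter F and 15 with R, and 17 lay in the middle block of rows, which holds 49.7% of these members. At 10-fold, 2 members were higher (background 0.0613%) and none lower (background 0.0187%). Of these 2, 1 was well above background on both arrays.

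With the Slpi label against the empty vector, 14 members were higher, or 0.467%, with a background of 0.173%, and 1 was lower, or 0.0333%, with a background of 0.056%. At 10-fold, 5 were higher (0.167%, background 0.04%) and none lower (background 0.0133%). Of these 5, 3 were well above background on both arrays and 2 on the brighter array only. For the latter the fold is a lower bound, given below as 10.5 and 6.66. Of the mRNA probes, 0.158% were 2-fold higher and 0.0204% were 10-fold higher. Between the transfected arrays, 21 members were higher with the Mst1r label than with the Slpi label (0.700%, background 0.594%) and 7 were lower (0.233%, background 0.173%). At 10-fold these were 2 (background 0.048%) and 5 (background 0.0373%), of which 0 and 3 were well above background on both arrays. The first pair of comparisons shares the array labelled empty vector, and the last shares an array with each of them, so the 3 are not independent. Of the 14 members higher with the Slpi label, 10 lay in the middle block of rows, and so did the 1 lower. Between the transfected arrays, 17 of the 21 higher and 4 of the 7 lower members did.

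The member with the largest difference for the Mst1r label was A_30_P01023730 at chr10:38969397-38972974, letter F. Its signal was 659 on the array labelled empty vector, 7587 on that labelled Mst1r vector and 2748 on that labelled Slpi vector. The array labelled Mst1r vector was the highest and that labelled empty vector the lowest. The log2 difference from the empty vector was 3.76 ± 0.14 (13.5-fold) for the Mst1r label and 2.14 ± 0.14 (4.40-fold) for the Slpi label.

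The same order of arrays, empty vector lowest and Mst1r label highest, was seen at other leading members. A_30_P01033206 at chr3:34643323-34682773, letter F, had 1107, 9100 and 4406 on the arrays labelled empty, Mst1r and Slpi vector, a log2 difference of 3.27 ± 0.13 for the Mst1r label and 2.07 ± 0.13 for the Slpi label. A_30_P01032797 at chr11:79552346-79553082, letter R, had 129.4, 1057 and 438, with 3.26 ± 0.17 and 1.84 ± 0.17. A_30_P01018303 at chr4:118723941-118757032, letter F, had 92.4, 671 and 249, with 3.09 ± 0.17 and 1.51 ± 0.20. These 3 members lie on different chromosomes, and each was at least 2-fold apart between the transfected arrays as well, by 1.20 ± 0.13, 1.42 ± 0.14 and 1.58 ± 0.17 on the log2 scale. With normexp, A_30_P01018303 had 2.33 for the Mst1r label.

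Weaker members of the same order followed. A_30_P01026511 at chr10:61498439-61498933, letter R, had signals of 22.7, 129.003 and 57.8 and log2 differences of 2.74 ± 0.22 (1.498 with normexp) and 1.42 ± 0.24 for the Mst1r and Slpi labels. A_30_P01025372 at chr9:20784567-20799942, letter R, had 300.0, 1637 and 640, with 2.68 ± 0.14 and 1.17 ± 0.14. The probe to the opposite letter of that interval, A_30_P01021695, had 74.5, 80.7 and 81.3, with 0.35 ± 0.20 for the Mst1r label, so the difference was on 1 letter only. A_30_P01023307, on chromosome 18, had 109, 503 and 208, with 2.44 ± 0.17 and 1.01 ± 0.20.

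Some members were well above background only on the array labelled Mst1r vector, so that their fold is a lower bound, taken against the probe's own signal on the other array or, where that was dimmer, against the lowest signal well above background there. A_30_P01021779 at chr8:110197171-110206546, letter R, had 20.3, 209 and 16.9 and was at least 12.1-fold higher with the Mst1r label than with the empty vector. A_30_P01022815 at chr8:41730287-41746862, letter F, had 21.6, 85.6 and 17.9 and was at least 4.64-fold higher. A_30_P01033293 at chr15:74476233-74476296, letter F, had 9.25, 71.7 and 4.2 and was at least 4.44-fold higher. The bound used the probe's own signal for the first 2 and the lowest signal well above background for the last. With normexp background correction the log2 differences of the 3 were 1.27, 0.96 and 0.93, so that the last 2 were no longer 2-fold apart. Unlike the members above, all 3 had no more signal on the array labelled Slpi vector than on that labelled empty vector.

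The 4 lower members for the Mst1r label changed little more than 2-fold. A_30_P01018914 at chr9:78107225-78118850 and A_30_P01020518 at chr9:78104935-78116974, both letter F, lie in overlapping intervals. The first had signals of 274, 98.2 and 230 on the arrays labelled empty, Mst1r and Slpi vector and the second 299, 110 and 289. Their log2 differences for the Mst1r label were -1.25 ± 0.17 and -1.21 ± 0.17, and for the Slpi label -0.18 and 0.03. A further probe of the overlap, A_30_P01027697, was at 3.73 to 4.0 on the 3 arrays and was not detected. A_30_P01025589 at chr14:33115110-33131171, letter F, had 92.7, 35.4 and 32.3 and was lower with both labels, by -1.16 ± 0.22 and -1.44 ± 0.22. It was the only member lower with the Slpi label in these rows. A_30_P01032939 at chr2:32950586-32984936, letter R, had 64.4, 27.4 and 46.5, with -1.0 ± 0.22 for the Mst1r label. With normexp background correction none of the 4 passed the call, at -0.88, -0.88, -0.38 and -0.28 in the order given, and A_30_P01025589 had -0.61 for the Slpi label.

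The members with the largest differences for the Slpi label had a different order of arrays. A_30_P01027526 at chr11:95113972-95114267, letter F, had 41.2 on the array labelled empty vector, 32.6 on that labelled Mst1r vector and 4222 on that labelled Slpi vector. Its log2 difference from the empty vector was 6.76 ± 0.20, or 108-fold, for the Slpi label and -0.11 ± 0.24 for the Mst1r label. The interval is 296 bases long and no other interval probe on the array overlapped it. A_30_P01027716 at chr14:79724027-79729152, letter F, had 37.6, 32.6 and 1214, with 5.09 ± 0.20 (34.1-fold) for the Slpi label and 0.02 for the Mst1r label. A_30_P01022796 at chr11:87872568-87880978, letter F, had 888, 824 and 9811, with 3.54 ± 0.14 (11.7-fold) and 0.12. With normexp the log2 differences of the first 2 for the Slpi label were smaller, at 5.48 and 3.83, and stayed far over 2-fold. At these members the arrays labelled empty and Mst1r vector were close together and the array labelled Slpi vector stood apart.

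Another 2 members were well above background only with the Slpi label. A_30_P01030108 at chr10:62347876-62374346, letter R, had 6.05, 4.32 and 188 and was at least 10.5-fold higher than with the empty vector. A_30_P01032422, on chromosome 18, had 4.84, 4.89 and 119.5 and was at least 6.66-fold higher. With normexp their log2 differences were 1.65 and 1.22. Each of these 5 values rests on a single spot per array.

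Called members were set beside other probes of the same or an overlapping interval. With the Slpi label no such probe passed the same call, and with the Mst1r label some of the same letter did. For the Slpi label, 2 of the 15 called members had another probe of the same letter well above background on both arrays, and neither had 1 that passed the same call. At A_30_P01030108, probes of the same interval and letter gave log2 differences of -0.40 ± 0.24 and -0.28 ± 0.24 for the Slpi label. A_30_P01023247, in the interval chr10:62360667-62361253 within it and of the same letter, had 2492, 8491 and 4451, with 2.0 ± 0.13 for the Mst1r label and 0.92 ± 0.13 for the Slpi label. Probes of overlapping intervals with the same letter thus differed in their pattern over the arrays. At A_30_P01027716, the probe of the opposite letter that was detected, A_30_P01024394 in row 73, had 172, 183 and 155. For the Mst1r label, 9 of the 31 called members had another detected probe of the same letter, and for 5 of them at least 1 such probe passed the call in the same direction. These 5 were the pair on chromosome 9, 2 probes on chromosome 1 described next, and A_30_P01021868 at chr4:155560050-155570900, letter F, with 144, 251 and 146 and 1.03 ± 0.20. For the last, the agreeing probe A_30_P01019069 lies in the upper part, in row 50, with 2.10 ± 0.59. In contrast, A_30_P01024139 had 2.39 ± 0.17 and the detected probe A_30_P01025204 beside it 0.01 ± 0.14. Undetected probes are not in these counts. A_30_P01033513, of the same letter beside A_30_P01032797, had 4.27, 4.27 and 4.30. A_30_P01030613, beside A_30_P01023307, had 9.90, 4.93 and 9.19. Opposite-letter probes were detected beside 10 of the 31 and 4 of the 15, and none passed the same call.

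Overlapping and neighbouring intervals on chromosome 1 moved together with the Mst1r label. The interval chr1:175660642-175671878 lies within chr1:175654606-175672031, so their probes share a source. The neighbour, chr1:175705225-175717250, has probes in the upper part only. The 9 probes of 3 intervals at chr1:175654606-175717250, a span of 62.6 kb, include 7 of letter R and 2 of letter F, and 7 of the 9 lie in the upper part. A_30_P01017895 in row 212 had signals of 862, 1558 and 742 on the arrays labelled empty, Mst1r and Slpi vector, and A_30_P01021838 in row 333 had 761, 1390 and 614. The brightest, A_30_P01024163 in row 111, had 3105, 6024 and 2770. On each of these probes the array labelled Mst1r vector was the highest and the other arrays were close. Interferon-inducible genes are known to lie on distal chromosome 1 of the mouse, and whether these intervals overlap any of them was not determined without an mm9 annotation.

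Of the 9 probes, 8 passed the call as higher with the Mst1r label and none passed it with the Slpi label. Over the 7 probes well above background on all 3 arrays, the log2 difference from the empty vector was 1.08 to 2.01 with a median of 1.29 for the Mst1r label and -0.23 to -0.03 with a median of -0.09 for the Slpi label. The others in the upper part included A_30_P01031526 in row 67 with 622, 1329 and 558, A_30_P01030969 in row 23 with 374, 782 and 346 and the F probe A_30_P01025287 in row 26 with 39.7, 87.5 and 35.5. The single probe not called, A_30_P01032721, was well above background on 1 array only. The largest difference was that of A_30_P01023338 at chr1:175705225-175717250, letter R, with 180, 619 and 154 and 2.01 ± 0.26. Both probes in the lower part were little over 2-fold, at 1.08 ± 0.14 and 1.10 ± 0.14, and neither passed the call without scaling (0.85 and 0.87) or with spike-in scaling (0.98 and 0.997). This was the only set of several same-strand probes in the lower part, of 151 such sets, in which all probes passed the call together.

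With the called members included, the class as a whole was shifted slightly against the mRNA probes. Among probes well above background on both arrays in the lower part, the median log2 difference for the Mst1r label was 0.05 over 960 members, -0.05 over 11317 mRNA probes and -0.03 over all probes, and 58.9% of the members against 38.9% of the mRNA probes lay above 0. For the Slpi label the medians were -0.04 over 1003 members, 0.00 over 11512 mRNA probes and 0.00 over all probes. Between the transfected arrays they were 0.11, -0.05 and -0.02, with 65.8% of the members and 41.5% of the mRNA probes higher with the Mst1r label. The sign of the members' median depended on the scaling. It turned for the Mst1r label without scaling (all differences moved by -0.23) and with spike-in scaling (-0.10), for the Slpi label with median scaling (0.17) and between the transfected arrays without scaling (-0.15) or with median scaling (-0.13). The difference between the medians of members and mRNA probes, 0.10, -0.04 and 0.16 in the 3 comparisons, does not depend on it. A shift between 2 arrays cannot be told apart from a difference between 2 cultures or 2 labelling reactions.

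For the Mst1r label the median of the members lay above that of the mRNA probes in every class of signal. At a mean log2 signal of 6 to 8 the median for the Mst1r label was 0.06 over 321 members and -0.04 over 2528 mRNA probes, and at 8 to 10 it was 0.07 over 163 members and -0.08 over 2954 mRNA probes. At 10 to 12 it was 0.01 over 95 members and -0.06 over 2561 mRNA probes. In the dimmest class, 4 to 6, the medians were 0.07 over 328 members and 0.03 over 1558 mRNA probes, and in the brightest, 12 to 18, they were 0.03 over 53 members and -0.04 over 1716 mRNA probes. The quartile ranges of members and mRNA probes overlapped in each class of signal.

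Long noncoding RNAs with RefSeq names gave a comparison. Of a list of 40, 30 had a probe on the array and 20 were well above background on all 3 arrays by their brightest probe. For the Mst1r label the median log2 difference of these 20 was 0.14, with a range from -0.08 to 1.39, and for the Slpi label 0.00, with a range from -0.28 to 0.35. These 20 include probes of the upper part. By their brightest probe of the lower part alone, a choice made after seeing the data, 19 were well above background on all 3 arrays, with medians of 0.18 and 0.03, beside -0.03 and 0.00 over all probes of that part, and none was 2-fold apart. Without scaling the medians for the Mst1r label would lie below 0. Among the 20, Neat1 was the only 1 at least 2-fold apart, by a probe of the upper part. Its brightest probe, in row 50, had 142, 318 and 163 on the arrays labelled empty, Mst1r and Slpi vector, a log2 difference of 1.39 ± 0.26 for the Mst1r label, and its probe in row 138 had 97.3, 159 and 100.3, with 0.94 ± 0.20. Next came Snhg7, a host gene of small nucleolar RNAs, with 3726, 5308 and 3795 and 0.74 ± 0.13, Tug1 with 84.1, 112 and 78.4 and 0.64 ± 0.20, and Snhg12, a further snoRNA host gene, with 1049, 1365 and 1192 and 0.61 ± 0.14.

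In the upper part the counts were higher in every comparison and in both directions. Of 1443 members, 80 (5.54%, background 3.43%) were higher and 57 (3.95%, background 3.39%) lower with the Mst1r label against the empty vector, but 39 and 11 of them were well above background on both arrays. With the Slpi label 50 (3.47%, background 2.56%) were higher and 52 (3.6%, background 3.27%) lower, of which 17 and 14 were well above background on both arrays. Between the transfected arrays, 72 (4.99%, background 3.26%) were higher with the Mst1r label and 45 (3.12%, background 2.58%) were lower. At 10-fold the counts were 36 (background 1.52%) and 29 (background 1.73%) for the Mst1r label, 24 (background 1.31%) and 24 (background 1.68%) for the Slpi label, and 25 (background 1.47%) and 21 (background 1.43%) between the transfected arrays. On the dimmer array most of these members were not well above background. The negative control spots and the share of members seen on 1 array only, given above, were also higher in these rows, and their part in these counts was not tested.

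The technical error in these rows was larger at low signal. Between log2 signals of 4.5 and 6 the standard deviation between spots was 0.54 in the upper part and 0.17 in the lower part, and between 10 and 12 it was 0.08 and 0.10. The first pair rests on 7 and 23 readings of a probe on an array and the second on 6 and 12. With so few readings these errors are themselves imprecise. Among the largest differences of members of the upper part well above background on both arrays were those that follow. For the Slpi label others were larger, such as A_30_P01028832 with 2.39 ± 0.59 and A_30_P01029670 with -2.72 ± 1.46. A_30_P01022623 at chr11:120094176-120097622, letter R, had 1294, 11488 and 5190 on the arrays labelled empty, Mst1r and Slpi vector, with 3.38 ± 0.12 for the Mst1r label and 2.08 ± 0.12 for the Slpi label. A_30_P01025512 at chr16:13754656-13756647, letter F, had 68.1, 992 and 58.0, with 4.09 ± 0.26 (3.22 with normexp) for the Mst1r label and -0.15 for the Slpi label. A_30_P01022887 at chr5:14923900-15062725, letter F, had 52.7, 472 and 162, with 3.39 ± 0.55 (2.28 with normexp) for the Mst1r label. On the lower side, A_30_P01027855 at chr4:11049325-11072075, letter R, in row 2, had 179, 29.6 and 26.7, with -2.36 ± 0.59 and -2.66 ± 0.59 for the Mst1r and Slpi labels, or -1.10 and -1.16 with normexp.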

How the data were processed

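Single-colour expression arrays (Agilent SurePrint G3 Mouse) of 3 transfected Hepa1c1c7 cultures were analysed, 1 array per group, all from 1 slide and 1 scan. Per the file headers, the deposited values are intensities of single spots, extracted by Feature Extraction 12.0.3.1, whereas the methods name an earlier version. The processed signal of the authors is background-subtracted, spatially detrended and linear, and was not scaled between arrays. No spot was saturated. The table deposited for all 3 arrays holds the same processed intensity per probe, without scaling or centring (column medians 18.3, 15.3 and 15.4), and was used as an alternative. The deposited flags were used as given.

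Spots marked as outliers were left out, unless every spot of the probe was marked. For the 4444 members printed on 1 spot a marked spot was therefore kept. The log2 signals were averaged per probe and the array's 75th percentile of non-control probes was subtracted, as in the methods. Calls used 2-fold and the methods' minimum of 50, with the study's 10-fold beside it. Where the dim array was not well above background, the fold is a bound against the higher of the probe's own signal and the lowest signal well above background there (18.9, 18.8 and 16.6). Technical errors came from probes on at least 10 spots. Exact 95% binomial intervals were used. The number of arrays limits the precision. Python 3.11.15 with numpy 2.4.6, pandas 2.3.3 and scipy 1.17.1, and limma 3.58.1 for the normexp alternative (offset 50), were used. The steps were tested on simulated data.

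Probes named are the 5 largest differences per comparison and direction in the lower part of the array among those well above background on both arrays, up to 5 by bound, up to 3 in the upper part, the 10 brightest and intervals with several called probes. Probes of overlapping intervals were added after their values were seen. Members and lists were chosen with earlier results of these data known. RefSeq names come from an annotation of GRCm38.p6, used for names only. No mm9 genome or annotation was used here, so no probe sequence and no overlapping gene is given.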

Additional observations from a re-analysis of the deposited data

Results flagged for a closer look

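Negative control spots, which carry no target sequence, gave signal well above background in the upper part of the array on 12 of 102 spots (11.8%) on the array labelled empty vector, 9 (8.82%) on that labelled Mst1r vector and 11 (10.8%) on that labelled Slpi vector. These counts exceed the limit that a count of 0 allows and come from spots outside the main measurement. The same part had more interval probes well above background, 45.0%, 40.3% and 43.3%, and the part of the stray signal in these shares was not tested.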

How the results depend on the processing

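No paired analysis was possible because each group held 1 array, and no array could be left out. Of 166 values of the main results under other settings, 98 stayed the same and 68 moved. The same means within the counting interval, the technical error of 0.14 (log2) or 1.5 times the count. Shares and counts have no sign to reverse. The difference between the medians of members and mRNA probes does not depend on the scaling, so scaling could not reverse it. Its values under other scalings are among the 98 and were fixed in advance. Keeping outlier-marked spots cannot change a probe printed on 1 spot, and the deposited table holds the same intensities. Values that stayed the same under these settings therefore show little. The members' own median, which changed sign with the scaling as described above, is not among the 166. The named probes that passed the call kept their sign in all 399 values. The scalings moved all probes by less than a call needs, so they could not change these signs. With normexp, 6 of 14 called named probes of the lower part fell under 2-fold for the Mst1r label. For the Slpi label 1 of 8 did, and between the transfected arrays 4 of 17. In the upper part these were 2, 2 and 3, of 6 each. Of the 10 brightest probes, which differed little between arrays, 4 changed sign in 8 of 70 values. The share of members above background was 60.6%, 56.7% and 58.2% on the arrays labelled empty, Mst1r and Slpi vector with the weaker flag of the files (significantly above background), 24.2%, 23.4% and 23.1% with a signal over 50, 45.0%, 40.3% and 43.3% in the upper part and 38.3%, 35.6% and 37.8% over all rows. The median gap to mRNA probes was -1.99, -1.78 and -1.99 with normexp, against -2.58, -2.31 and -2.60. The share of detected intervals with 1 letter only was 42.3% with the weaker flag and 76.1% with a signal over 50. It was 72.6% when detection on all 3 arrays was asked and 59.8% in the upper part. With the weaker flag, chromosomes 17, 11, 3 and 13 had 69.3%, 67.2%, 51.0% and 55.9%, and chromosome 13 had 32.6% over all rows.

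Counts of called members changed as follows, given as higher and lower for the Mst1r label against empty vector, the Slpi label against empty vector, and the Mst1r against the Slpi label. With normexp they were 17 and 0, 9 and 0, and 13 higher. In the upper part of the array they were 80 and 57, 50 and 52, and 72 and 45, and over all rows 107 and 61, 64 and 53, and 93 and 52. Without a signal minimum they were 44 and 18, 25 and 12, and 38 and 20. With a minimum of 100 the lower counts were 2 and 0 in the comparisons with the empty vector. At 10-fold they were 2 and 0, 5 and 0, and 2 higher. With no scaling, with the percentile over detected probes and with spike-in scaling, 2 members were lower with the Slpi label, and spike-in scaling gave 34 higher with the Mst1r than with the Slpi label. No scaling moved the median of all probes by -0.23 and -0.08 for the Mst1r and Slpi labels against the empty vector, median scaling by 0.03 and 0.17 and spike-in scaling by -0.10 and -0.24. Sets of same-strand probes with any call numbered 23, 13 and 19 over all rows, and 1 for the Mst1r label without scaling. Those called throughout numbered 3 and 3 over all rows for the Mst1r label against the empty vector and against the Slpi label, and 0 for the former without scaling. Runs of neighbouring calls numbered 7, 1 and 6 over all rows. Nearly all members rest on 1 spot per array, and signal near background limits what can be said of the dim ones.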
